A study of Rattus norvegicus with 9 samples.

Results

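The lateral hypothalamic peptide genes Hcrt, Pmch and Nts were followed in the hypothalamus of 9 rats. Their probe sets were found by the symbol that the array's platform annotation gives: each of the 3 genes is named by 1 probe set (1387163_at for Hcrt, 1368802_at for Pmch and 1380967_at for Nts). They are 3 of the 14217 genes named on the array, which holds 31042 probe sets besides the manufacturer's controls. All rats were males aged 13 weeks, and each array holds the RNA of 1 rat. The noodle-diet group (rats 1, 4, 7 and 13) ate a medium-fat diet holding 30% instant noodle by weight, with its seasonings. The control group (rats 2, 5, 8, 11 and 14) ate the same diet without seasonings, so both groups ate the noodles, with 26% of energy from fat. Feeding lasted 30 days and intake was matched at about 60 g of diet per kg body weight per day. The question of the design is whether the seasonings alter transcripts in the hypothalamus.

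Hcrt encodes the precursor of the orexins (hypocretins), peptides that promote wakefulness and feeding, and Pmch the precursor of melanin-concentrating hormone (MCH), which promotes feeding and sleep. The neurons that make these precursors are separate populations that lie intermingled in the lateral hypothalamus and project widely through the brain. Nts encodes the precursor of neurotensin and neuromedin N, and is made in the lateral hypothalamus but also in the preoptic area and many other forebrain sites. Orexin neurons are found almost entirely in the hypothalamus, whereas neurotensin neurons are spread over the brain. Neurotensin lowers food intake and body temperature when given into the brain.

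The sequence before the start of Hcrt and of Nts is shown as background, and that of Pmch was not available. No relation of these sequences to the values of the rats was tested. The sequences are RefSeq's (GRCr8), for 2 of the 3 genes, and hold the 250 bases before the annotated start, read 5′ to 3′ on the gene's strand. Hcrt lies on the minus strand at chr10:86191525-86191774, and Nts on the minus strand at chr7:39460889-39461138.
Hcrt: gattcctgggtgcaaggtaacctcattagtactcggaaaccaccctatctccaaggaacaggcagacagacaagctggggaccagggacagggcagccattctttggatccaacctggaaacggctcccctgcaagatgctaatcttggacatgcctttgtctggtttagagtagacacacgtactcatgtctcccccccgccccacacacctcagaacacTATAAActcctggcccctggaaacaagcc
Nts: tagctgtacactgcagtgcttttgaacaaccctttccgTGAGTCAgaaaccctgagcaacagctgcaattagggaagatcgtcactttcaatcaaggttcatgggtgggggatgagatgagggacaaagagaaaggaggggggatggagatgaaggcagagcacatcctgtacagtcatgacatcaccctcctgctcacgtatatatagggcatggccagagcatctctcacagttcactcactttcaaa
Capitals mark matches on either strand to 4 motifs that were searched: TATAAA (the TATA box), TGAGTCA (the AP-1 site, bound by Fos and Jun proteins), TGACGTCA (the cyclic AMP response element) and CACGTG (an E-box). Hcrt held TATAAA at 29 to 24 bases before the start, as 12.9% of 33469 promoter windows of this length did in any position. Nts held TGAGTCA at 212 to 206 bases before the start, as did 4.05% of the windows. The other 2 motifs, present in 1.59% (TGACGTCA) and 5.59% (CACGTG) of the windows, had no exact match in these windows. Only exact matches were searched, so variants of the 4 motifs are not marked.

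Values are deposited log2 expression values, and their spread is given as the SD between rats. Most of the array hardly moved: 29759 of 31042 probe sets (95.9%) had a range below 0.01 log2 units and are called compressed, and 1223 (3.94%) ranged over more than 0.05 and are called variable. Array medians lay between 6.777 and 6.785 and correlations between arrays between 0.997 and 0.999. The method that summarized the probes is not known here, so a difference on this scale was not converted to a fold change. No detection calls were available, so presence of a marker was not told apart from background. Of 10 hypothalamic transcription factors, 8 were measured and 0 of them were variable, while 22 of 27 other hypothalamic peptide genes were measured and 11 were variable. Whether a gene varied between rats is no check of the tissue label, which was taken as given.

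The 3 peptide genes were variable, and over all 9 rats orexin varied most. Hcrt measured 9.70, 9.65, 9.82 and 10.05 in noodle-diet rats 1, 4, 7 and 13, against 8.75, 10.04, 9.60, 9.87 and 10.01 in control rats 2, 5, 8, 11 and 14. Control rat 2 was the lowest by 0.85, a gap wider than the 0.45 that the other 8 rats spanned, and the remaining control rats lay among the noodle-diet values or, for rat 8, just below them. This gap was 0.660 of the control group's range, below Dixon's 95% limit for an outlier among 5 values. Over all 9 rats the range of Hcrt was 1.3, and Dixon's test was not run on the 9 together. In a block of tissue, fewer orexin neurons and less orexin mRNA per neuron cannot be told apart. Over the 9 rats Hcrt had an SD of 0.40, and 95 of the 1223 variable probe sets had a larger one. That Hcrt varied more than Nts rested on control rat 2. Without it the SD among control rats was 0.20 for Hcrt and 0.27 for Nts. Among noodle-diet rats it was 0.18 for Hcrt and 0.34 for Nts.

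Pmch varied over a narrower range, with the same rat at the bottom. Its values were 12.22, 12.15, 12.10 and 12.32 in noodle-diet rats 1, 4, 7 and 13, against 11.85, 12.28, 12.08, 12.09 and 12.37 in control rats 2, 5, 8, 11 and 14. Control rat 2 lay 0.23 below the next lowest rat, and the other 8 rats spanned 0.30. The highest values, those of control rat 14, noodle-diet rat 13 and control rat 5, came from both diets, and the same 3 rats were the highest for Hcrt. The SD over the 9 rats was 0.16.

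Nts had another order of rats. It measured 7.49, 7.76, 8.30 and 7.92 in noodle-diet rats 1, 4, 7 and 13, against 7.93, 7.73, 7.93, 7.77 and 8.31 in control rats 2, 5, 8, 11 and 14. Noodle-diet rat 7 and control rat 14 stood 0.37 above the third-highest rat, and noodle-diet rat 1 was the lowest by 0.23. Control rat 2, lowest for Hcrt and Pmch, was in the middle for Nts. The SD over the 9 rats was 0.26.

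**Figure D1:**
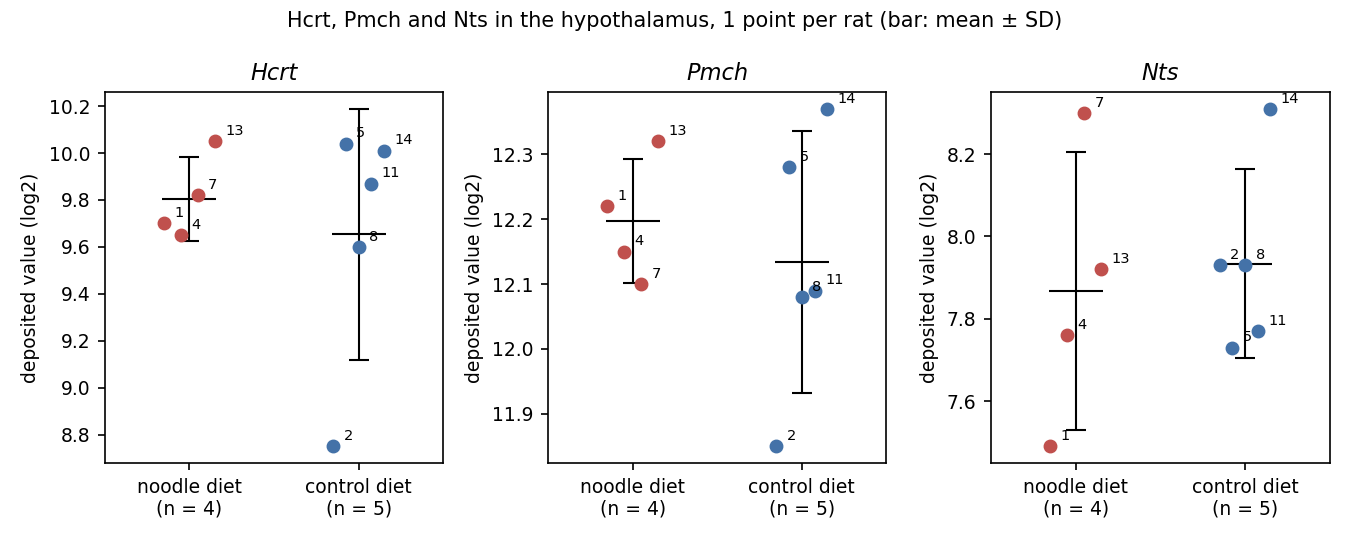
Deposited log2 values (vertical axes, each with its own range) of Hcrt, Pmch and Nts in 4 noodle-diet rats (left) and 5 control-diet rats (right), 1 numbered point per rat, with mean and SD as bars. Control rat 2 sits at 8.75 for Hcrt and 11.85 for Pmch, below the 8 other rats, and at 7.93 for Nts, within them.

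Between the diets, none of the 3 genes differed beyond the spread of the animals. Hcrt averaged 9.81 ± 0.18 in noodle-diet rats (SD, n = 4) and 9.65 ± 0.53 in control rats (SD, n = 5). The difference was 0.15 (SE 0.27, 95% interval -0.47 to 0.77) and the limma adjusted p rounded to 1. Pmch averaged 12.20 ± 0.095 in noodle-diet rats and 12.13 ± 0.20 in control rats. The difference was 0.06 (SE 0.11, 95% interval -0.18 to 0.31, limma adjusted p rounding to 1). Nts averaged 7.87 ± 0.34 in noodle-diet rats and 7.93 ± 0.23 in control rats. The difference was -0.06 (SE 0.18, 95% interval -0.48 to 0.35, limma adjusted p rounding to 1). Exact 2-sided permutation tests over the 126 splits of the rats gave p = 0.770 for Hcrt, 0.595 for Pmch and 0.714 for Nts.

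The groups overlapped for all 3 genes, and 0 of the 3 had an unadjusted p under 0.05 by limma. Over the array, 0 of 31042 probe sets (0%) passed at an adjusted p under 0.05, 712 (2.29%) had an unadjusted p under 0.05, and 176 (0.567%) had groups that did not overlap. Of the 1223 variable ones, 11 (0.899%) reached that unadjusted level, 1 (0.0818%) had groups that did not overlap, and 51.9% were higher in noodle-diet rats. The intervals set what was detectable. They ran from -0.47 to 0.77 for Hcrt, from -0.18 to 0.31 for Pmch and from -0.48 to 0.35 for Nts.

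The sign of each difference rested on single rats. Without control rat 2 the control mean of Hcrt was 9.88 ± 0.20 (SD, n = 4), above the noodle-diet mean, and the difference was -0.074. The difference of Pmch was then -0.0075, against a control mean of 12.20 ± 0.14. For Nts the difference was 0.061 without noodle-diet rat 1 and 0.030 without control rat 14, and it was -0.21 without noodle-diet rat 7. The SD of Hcrt among control rats was 0.53 with rat 2 and 0.20 without it, beside 0.18 among noodle-diet rats.

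**Figure D2:**
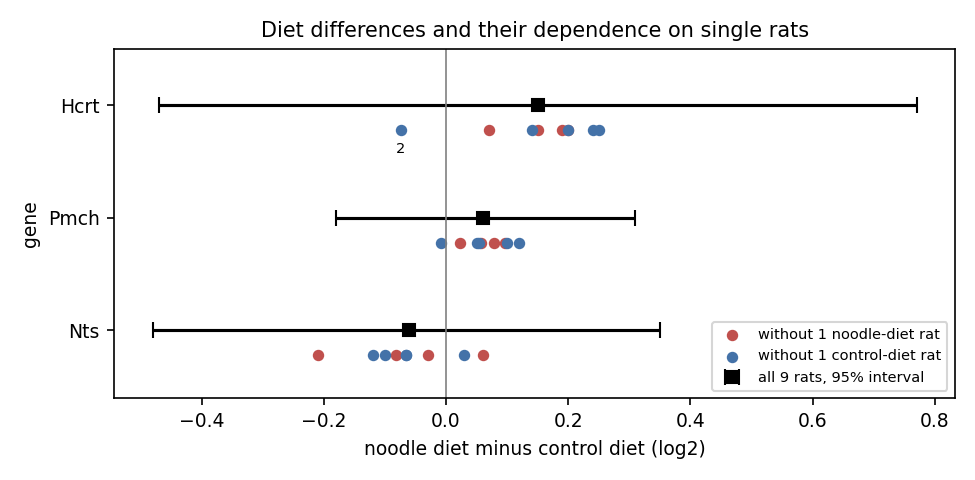
Noodle diet minus control diet (log2, horizontal axis) for Hcrt, Pmch and Nts: black squares with 95% intervals for all 9 rats, and points below them for the difference with 1 noodle-diet rat (red) or 1 control-diet rat (blue) left out. All 3 intervals span 0, and without control rat 2 (marked) the Hcrt difference moves to -0.074.

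Orexin and MCH transcripts varied together over the rats, and no relation of neurotensin with either was detected. For Hcrt and Pmch Pearson's r was 0.89 (exact 2-sided permutation p = 0.00256, adjusted p = 0.00767 over the 3 pairs, n = 9). Spearman's rho was 0.80 (exact permutation p = 0.0138, adjusted p = 0.0415). With the diet means removed r was 0.88, and Pmch changed by 0.35 log2 units per log2 unit of Hcrt.

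The strength of that relation depended on control rat 2. Without that rat r was 0.75 (exact permutation p = 0.0455, adjusted p = 0.137, n = 8). Without the 2 rats farthest from the median of Hcrt, control rat 2 and noodle-diet rat 13, it was 0.68 (exact permutation p = 0.0956, n = 7), so the relation did not hold as a call once these rats were left out, while its direction stayed. With each rat left out in turn r lay between 0.75 and 0.93.

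For Hcrt and Nts r was 0.09 (exact permutation p = 0.779, adjusted p = 0.872) and rho -0.07 (exact permutation p = 0.880, adjusted p = 0.880). Without the 2 rats farthest from the median of Hcrt, r was 0.32 (exact permutation p = 0.476, n = 7). For Pmch and Nts r was 0.06 (exact permutation p = 0.872, adjusted p = 0.872) and rho -0.08 (exact permutation p = 0.843, adjusted p = 0.880). Without control rats 2 and 14, the farthest from the median of Pmch, r was -0.35 (exact permutation p = 0.463, n = 7). With 9 rats a relation of modest size between Nts and the other 2 genes was not detectable.

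**Figure D3:**
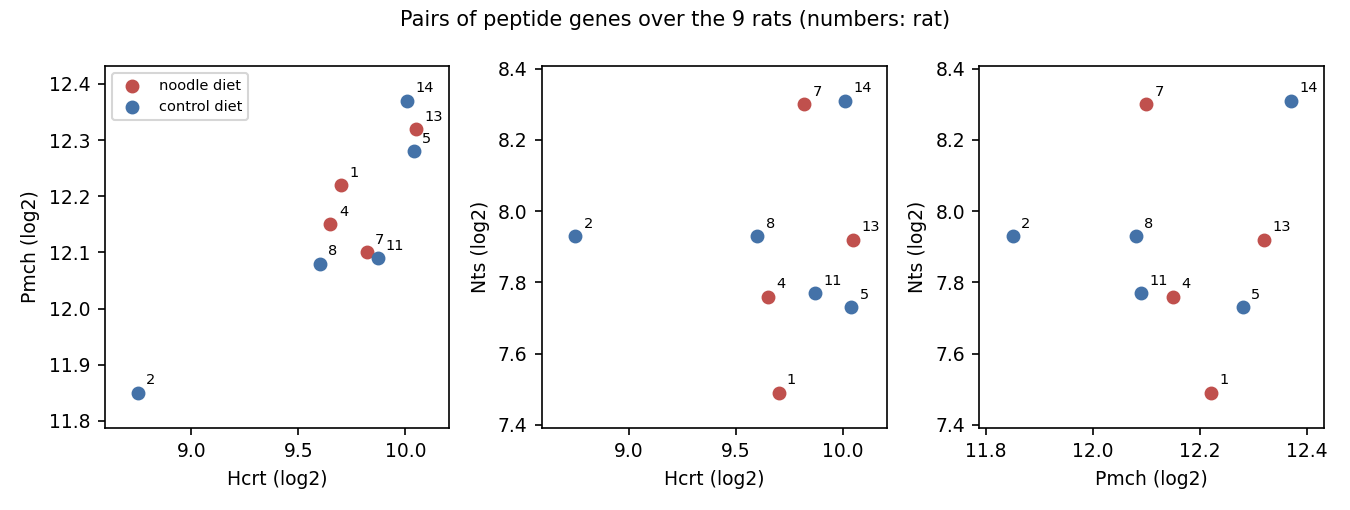
Each pair of Hcrt, Pmch and Nts over the 9 rats (log2 values on both axes, numbers give the rat, red noodle diet, blue control diet). Hcrt and Pmch rise together (r = 0.89, and 0.75 without control rat 2 at the lower left), and Nts shows no such order with Hcrt (r = 0.09) or Pmch (r = 0.06).

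The genes whose pattern over the 9 rats was most like each peptide gene were taken from the variable probe sets with 1 symbol. They were chosen for their r, which is given as a description with no test. For Hcrt the nearest gene was Pmch (r = 0.89). Then came Ncald (0.88), a neuronal calcium sensor, Bcat1 (0.86), the cytosolic branched-chain aminotransferase, Fndc4 (0.84), a fibronectin type III domain protein, Klc1 (0.79), a kinesin light chain, and the long non-coding RNA Oip5-as1 (0.78). The genes of most opposite pattern were Pkdcc (-0.85), a secreted protein kinase, Tsc22d1 (-0.75), a transcriptional regulator, and Bbox1 (-0.75), an enzyme of carnitine synthesis.

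Much of this likeness came from control rat 2. Without it, r with Hcrt was 0.75 for Pmch, 0.62 for Fndc4, 0.56 for Klc1, 0.52 for Bcat1, 0.26 for Oip5-as1 and 0.21 for Ncald, and -0.28 for Pkdcc. Ncald measured 7.88 in control rat 2 and 8.20 to 8.37 in the other 8 rats, while Pkdcc measured 7.20 there and 6.55 to 6.85 elsewhere. Only 1 of the 6 genes stayed among the 6 nearest to Hcrt without control rat 2, and 2 stayed without control rat 5. A second variable probe set of Ncald had r = 0.76 with Hcrt. Klc1 and Tsc22d1 had 3 further probe sets each, Oip5-as1 had 2, and Bcat1 and Bbox1 had 1 each. Of these further probe sets 0 were variable.

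For Pmch the nearest gene was Tmem44 (r = 0.93, rho = 0.97), which encodes a transmembrane protein. It measured 6.56, 6.29, 6.32 and 6.63 in noodle-diet rats 1, 4, 7 and 13, against 6.04, 6.57, 6.09, 6.27 and 6.63 in control rats 2, 5, 8, 11 and 14. All these values of Tmem44 lay below the array medians (6.777 to 6.785), and no detection call was available for it. The rats of highest Tmem44, noodle-diet rat 13 and control rat 14, were also the highest for Pmch, and r stayed at 0.91 or above with any 1 rat left out. Hcrt (0.89), Fndc4 (0.82), S100b (0.76), a glial calcium-binding protein, Slc30a9 (0.75), of the zinc transporter family, and Yipf4 (0.73), a Golgi membrane protein, followed. The most opposite were Ftcd (-0.81), an enzyme of histidine breakdown, Lrrc75a (-0.79) and Bbox1 (-0.76).

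Fndc4 stood among the 6 nearest genes of both Hcrt and Pmch, and Bbox1 among the 3 most opposite of both. As Hcrt and Pmch follow each other, shared genes are no separate evidence of their relation. For Bbox1, r without control rat 2 was -0.53 with Hcrt and -0.56 with Pmch. Without control rat 2, 1 of the 6 genes stayed among the nearest to Pmch, and r with Pmch was 0.73 for S100b, 0.61 for Fndc4, 0.49 for Yipf4 and 0.40 for Slc30a9. Without noodle-diet rat 13 or control rat 14, 3 of the 6 stayed. Slc30a9 had 2 further probe sets, of which 0 were variable.

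Nts had a set of nearest genes that shared none with Hcrt or Pmch. These were Hpcal1 (r = 0.96), a neuronal calcium sensor, Prlr (0.86), the prolactin receptor, Asic2 (0.83), an acid-sensing ion channel, Ltk (0.82), a receptor tyrosine kinase, Vsnl1 (0.82), a visinin-like calcium sensor, and Dlx1 (0.81), a transcription factor of forebrain GABA neurons. Dlx1 measured 8.01 to 8.18 in the 4 noodle-diet rats, against 8.05 to 8.41 in the 5 control rats, with the highest value in control rat 14. Further variable probe sets of Hpcal1 and Vsnl1 had r = 0.83 and 0.69 with Nts. Prlr had 2 further probe sets and Asic2 had 1, of which 0 were variable. The range of Ltk over the rats was 0.05, at the limit that marks a variable probe set.

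The genes most opposite to Nts were Mgst1 (r = -0.97), a microsomal glutathione transferase, Tnfsf13 (-0.96), a cytokine of the tumour necrosis factor family, and Aqp4 (-0.91), the water channel of astrocytes. Mgst1 measured 9.32, 9.09, 8.82 and 9.02 in noodle-diet rats 1, 4, 7 and 13, against 9.03, 9.21, 9.06, 9.06 and 8.83 in control rats 2, 5, 8, 11 and 14. It was highest in noodle-diet rat 1, where Nts was lowest, and lowest in noodle-diet rat 7 and control rat 14, where Nts was highest. With any 1 rat left out r stayed at -0.96 or beyond for Mgst1, -0.93 for Tnfsf13, -0.88 for Aqp4 and, on the other side, at 0.94 or above for Hpcal1. Of the 6 nearest genes, 2 stayed among the nearest when noodle-diet rat 1 was left out, and also 2 when either control rat 2 or 14 was. Of 2 further probe sets of Aqp4, 1 was variable and had r = -0.73 with Nts. Tnfsf13 had 1 further probe set, which was not variable.

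**Figure D4:**
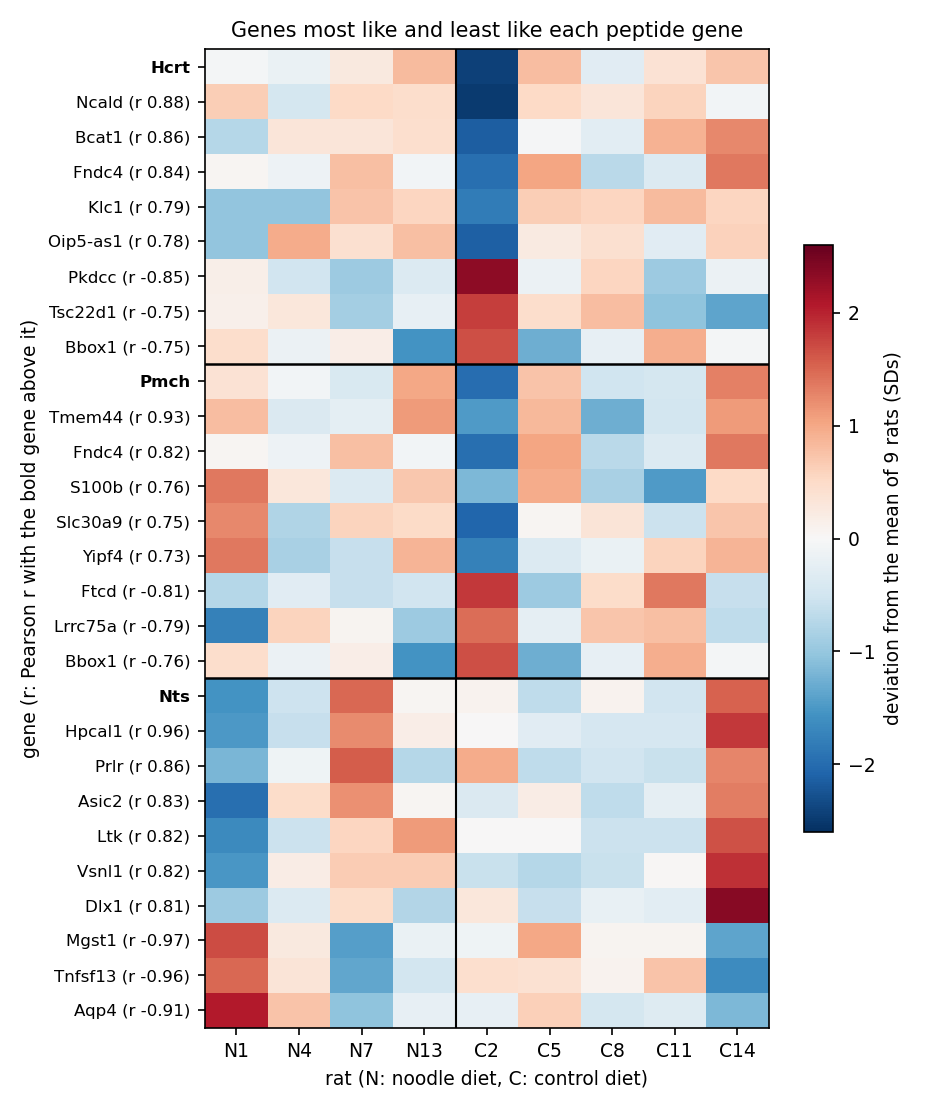
Deviation of each gene from its mean over the 9 rats, in SDs (colour), with rats in columns (N noodle diet, C control diet). Below each peptide gene (bold) stand its nearest genes and then its 3 most opposite genes with their r, and the other peptide genes are left out of these blocks. The Hcrt and Pmch blocks are marked by control rat 2, and the Nts block by noodle-diet rats 1 and 7 and control rat 14.

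Other hypothalamic peptides did not follow the 3 genes closely enough to pass. Against 11 variable peptide genes, 33 relations were computed. By Pearson's r the strongest for Hcrt was with Tac3, the gene of neurokinin B (r = 0.77, exact permutation p = 0.0264, adjusted p = 0.280, rho = 0.50, exact permutation p = 0.178). It was 0.30 without the 2 rats farthest from the median of Hcrt. By rank the strongest for Hcrt was with Sst, the somatostatin gene (rho = -0.60, exact permutation p = 0.0968, adjusted p = 0.419), with r = -0.38 (exact permutation p = 0.306, adjusted p = 0.546). Pmch and Tac3 had r = 0.69 (exact permutation p = 0.0424, adjusted p = 0.280, rho = 0.52, exact permutation p = 0.162), and r = -0.30 without the 2 rats farthest from the median of Pmch. Pmch and Sst had r = -0.53 (exact permutation p = 0.140, adjusted p = 0.347) and rho = -0.75 (exact permutation p = 0.0255, adjusted p = 0.419), and r = -0.83 without those 2 rats (exact permutation p = 0.0177, n = 7). The p for the 7 rats was not adjusted over the 33 relations, so it is no call.

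Nts had r = 0.78 with the oxytocin gene Oxt (exact permutation p = 0.0115, adjusted p = 0.226, rho = 0.83, exact permutation p = 0.00827). With Gnrh1, the gene of gonadotropin-releasing hormone, r was 0.78 (exact permutation p = 0.0137, adjusted p = 0.226, rho = 0.67, exact permutation p = 0.0589), and with Vip, a peptide of the suprachiasmatic nucleus, -0.70 (exact permutation p = 0.0401, adjusted p = 0.280, rho = -0.55, exact permutation p = 0.133). Without noodle-diet rat 1 and control rat 14, the farthest from the median of Nts, r was 0.58 for Oxt, 0.86 for Gnrh1 and -0.51 for Vip. None of these passed after adjustment.

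Marker scores of other cell types were set beside the peptides, as the mean deviation of each list's variable members from their mean over the rats. Of the measured markers, 3 of 10 were variable for neurons, 5 of 8 for astrocytes and 2 of 7 for the pituitary. For oligodendrocytes it was 8 of 8 and for meninges 10 of 10. A score thus covers only the part of its list that moved. In control rat 2 the score of 3 neuronal markers was -0.09 and that of 8 oligodendrocyte markers -0.22, both the lowest of the 9 rats, with control rat 14 next at -0.21 for the oligodendrocyte score. The neuronal score ran from -0.05 to 0.12 in noodle-diet rats and from -0.09 to 0.02 in control rats. The oligodendrocyte score ran from -0.10 to 0.17 in noodle-diet rats and from -0.22 to 0.40 in control rats. The score of 10 meningeal markers was 0.37 in control rat 2, within the -0.58 to 0.54 of the control group and the -0.46 to 0.68 of the noodle-diet group. The score of 2 markers of the anterior pituitary and pars tuberalis, Tshb and Cga, was -0.80 in control rat 2, its largest deviation. That score ran from -0.29 to 1.04 in noodle-diet rats and from -1.07 to 0.91 in control rats, with control rats 8 and 14 below rat 2. Over the 9 rats Hcrt had r = 0.42 with the neuronal score (exact permutation p = 0.264, adjusted p = 0.722, rho = 0.28, exact permutation p = 0.463) and -0.13 without control rat 2. With the oligodendrocyte score r was 0.16 (exact permutation p = 0.668, adjusted p = 0.763, rho = -0.03, exact permutation p = 0.948) and -0.55 without that rat, and with the pituitary score it was 0.40 (exact permutation p = 0.317, adjusted p = 0.722, rho = 0.32, exact permutation p = 0.410) and 0.15 without it. By Pearson's r, Hcrt and Pmch related most strongly to the score of 2 ependymal and tanycyte markers, 0.17 in control rat 2. For Hcrt r was -0.44 (exact permutation p = 0.253, adjusted p = 0.722), and -0.29 without control rat 2. For Pmch r was -0.43 (exact permutation p = 0.246, adjusted p = 0.722), and -0.27 without it. By rank Hcrt related most to the meningeal score and that of endothelial cells and pericytes (rho = -0.45 for each, exact permutation p = 0.230). The part of these cell types in the low Hcrt and Pmch of control rat 2 was not tested further.

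Of 24 relations between the 3 genes and 8 marker scores, the strongest by Pearson's r was that of Nts with 5 astrocyte markers, Aqp4 among them (r = -0.72, exact permutation p = 0.0274, adjusted p = 0.657, rho = -0.68, exact permutation p = 0.0503). It was -0.44 without the 2 rats farthest from the median of Nts. The astrocyte score ran from -0.10 to 0.19 in noodle-diet rats and from -0.14 to 0.17 in control rats. For meningeal markers r with Nts was -0.57 (exact permutation p = 0.120, adjusted p = 0.722, rho = -0.47, exact permutation p = 0.213) and -0.16 without those 2 rats. By rank the strongest of the 24 was that of Nts with the 2 pituitary markers (rho = -0.75, exact permutation p = 0.0255, adjusted p = 0.604). Its r was -0.56 (exact permutation p = 0.121, adjusted p = 0.722) and stayed at -0.56 without the same 2 rats (exact permutation p = 0.166, n = 7). None of the 24 passed after adjustment, and the part of these cell types in the Nts pattern was not tested further.

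The receptors of the 3 peptides came from compressed probe sets. Hcrtr1 and Hcrtr2, the orexin receptors, differed between diets by -0.00021 and 0.00034, Mchr1, the MCH receptor, by -8.9e-05, and Ntsr1, Ntsr2 and the sorting receptor Sort1, which also binds neurotensin, by -3.2e-05, 8e-05 and 0.00015. Differences of this size cannot be read as changes of the transcripts. By limma 0 of the 6 passed, 3 lay above and 3 below the control mean, their median difference was 2.4e-05, and 1 of them, Hcrtr2, had an unadjusted p under 0.05 (0.0264). Over all probe sets the median difference was -4.6e-06, with 48% higher on the noodle diet.

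Genes known from the neurons that make these peptides gave little to read. Of 6 measured genes known from orexin neurons, among them Pdyn (dynorphin) and Lhx9, 0 were variable. Of 5 known from MCH neurons 2 were variable, Cartpt at 10.75 ± 0.16 in noodle-diet rats and 10.78 ± 0.04 in control rats, and the GABA-synthesizing Gad1 at 10.82 ± 0.013 in noodle-diet rats and 10.83 ± 0.13 in control rats. Of 4 known from lateral hypothalamic neurotensin neurons 2 were variable, the vesicular GABA transporter Slc32a1 at 8.78 ± 0.19 in noodle-diet rats and 8.79 ± 0.17 in control rats, and Gad2 at 8.43 ± 0.12 in noodle-diet rats and 8.48 ± 0.21 in control rats. In these 3 lists 0 genes passed by limma, and 0 had an unadjusted p under 0.05.

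The peptides are cut from their precursors and stored in dense-core vesicles, and 16 genes of these steps were measured. Of these 9 lay above and 7 below the control mean, where 48% of all probe sets lay above. Among the 7 variable ones, 2 lay above and 5 below, where 51.9% of all variable probe sets lay above. By limma 0 of the 16 passed or had an unadjusted p under 0.05. Scg2, a secretogranin, averaged 11.67 ± 0.048 in noodle-diet rats and 11.61 ± 0.14 in control rats. Vgf, a granin-like precursor, averaged 9.49 ± 0.054 in noodle-diet rats and 9.55 ± 0.096 in control rats. The convertase inhibitor Pcsk1n averaged 10.47 ± 0.19 in noodle-diet rats and 10.53 ± 0.034 in control rats. The vesicle membrane protein Ptprn averaged 9.77 ± 0.098 in noodle-diet rats and 9.82 ± 0.071 in control rats. The median difference of the list was 1.6e-05, and -0.046 over its variable members, beside 0.0035 over all variable probe sets.

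Receptors through which hormones and transmitters act on lateral hypothalamic neurons held 1 variable gene of 14 measured, the serotonin receptor Htr2c, at 9.63 ± 0.062 in noodle-diet rats and 9.64 ± 0.10 in control rats. The list for wake-promoting neurons that orexin excites held 5 measured genes, of which 3 were variable. All 3 were higher on the noodle diet without passing, where 51.9% of all variable probe sets were higher. The other 2, Ddc and Th, came from compressed probe sets and stood at -0.00014 and -0.00019. Hdc, the histamine-forming enzyme, averaged 8.53 ± 0.048 in noodle-diet rats and 8.33 ± 0.19 in control rats (difference 0.20, SE 0.094, limma unadjusted p = 0.0690, adjusted p rounding to 1). Maob, a monoamine oxidase, averaged 10.09 ± 0.093 in noodle-diet rats and 9.98 ± 0.11 in control rats, and the vesicular monoamine transporter Slc18a2 averaged 8.07 ± 0.051 in noodle-diet rats and 8.02 ± 0.15 in control rats.

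Of the 22 other hypothalamic peptide genes measured, 10 lay above and 12 below the control mean, and 0 passed by limma or had an unadjusted p under 0.05. Among the 11 variable ones, 5 were above and 6 below, where 51.9% of all variable probe sets were above. Vip averaged 7.15 ± 0.86 in noodle-diet rats and 7.74 ± 0.90 in control rats, and Tac3 averaged 7.30 ± 0.093 in noodle-diet rats and 7.25 ± 0.21 in control rats. The remaining differences of variable peptide genes lay between -0.14 for Trh and 0.47 for Nmu, and Npvf stood at -0.022. Their size rested on single rats: Trh stood at -0.022 without noodle-diet rat 1, and Nmu at 0.30 without either noodle-diet rat 4 or control rat 2. Vip had a difference of -0.59, which was -0.99 without control rat 14 and -0.32 without noodle-diet rat 7.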

How the data were processed

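The authors deposited 1 table of log2 values for 31099 probe sets in 9 arrays, with RNA extracted by TRIzol and 100 ng labelled, per the labels' protocols. No label states the scale: log2 was inferred from values between 5.13 and 13.7. The authors' summarization and normalization methods are not stated in the sources. The number of arrays limits the precision. The 57 manufacturer's control probe sets were left out, and values were used as deposited. The platform annotation gave 1 symbol to 20826 probe sets. Diets were compared with limma 3.58.1 in R 4.3.3 (eBayes with trend, 2-sided tests, Benjamini-Hochberg over 31042 probe sets, threshold 0.05), and correlations by exact permutation over all 362880 pairings of the 9 rats, in Python 3.11.15. Both were tested on simulated data. Limma p-values set a difference against the spread between these rats, and permutation p-values set the observed value against reshuffled rats. Where a gene has several probe sets, that of highest mean among the variable ones was used.

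The members, lists and tests were chosen with earlier results of these data known. The text names the 3 members, all measured receptors, up to 4 variable genes of lowest p per other list, the variable peptides, and the 6 nearest and 3 most opposite genes by Pearson's r. Alternatives were no trend, a filter on low means, quantile normalization, a shift of arrays to 1 median, a robust variance model, array weights, variable probe sets alone, deviations from diet means, and leaving out each rat.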

Additional observations from a re-analysis of the deposited data

Results flagged for a closer look

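Of 124 groups tested (2 diets for each of 62 genes and marker scores), 14 held a rat standing apart by Dixon's test. About 6.2 would by chance if the groups were independent and unselected. Genes chosen for following or opposing a member are among the 62, so the 2 numbers cannot be compared as an excess. None of the 14 was in Hcrt, Pmch or Nts, but the test was run within each diet, on 4 or 5 rats. Over all 9 rats control rat 2 lay 0.85 below the next lowest for Hcrt, which this test did not cover. Control rat 14, highest for Nts and Pmch, accounts for 7 of the 14. In it Hpcal1 stood at 8.45 (the other control rats at 8.30 to 8.33), Vsnl1 at 11.26 (11.09 to 11.14), Ltk at 7.11606 (7.07928 to 7.08878), Tnfsf13 at 7.33 (7.63 to 7.74), Slc32a1 at 9.09 (8.67 to 8.75), Vgf at 9.72 (9.49 to 9.53) and Vip at 6.15 (8.01 to 8.30). Of these, Hpcal1, Vsnl1, Ltk and Tnfsf13 were chosen for following or opposing Nts.

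In control rat 2, lowest for Hcrt and Pmch, Ncald stood at 7.88 (the other control rats at 8.26 to 8.36) and Klc1 at 8.63 (8.90 to 8.93), and both were chosen for following Hcrt. In noodle-diet rat 1, lowest for Nts, Avp stood at 10.49 (the other noodle-diet rats at 11.64 to 11.84), Oxt at 8.66 (10.21 to 10.52), Tac3 at 7.16 (7.34 to 7.36) and Bcat1 at 9.55 (9.64 to 9.65). Pcsk1n stood at 10.47 in control rat 11 (10.54 to 10.56).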

How the results depend on the processing

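No paired analysis was possible because the labels give the 2 diets no shared rat numbers. By limma 0 probe sets passed in all 16 alternative fits, with 7 to 1155 at an unadjusted p under 0.05. None of the 3 genes passed in any fit. With 1 rat left out the diet difference ran from -0.074 to 0.25 for Hcrt, from -0.0075 to 0.12 for Pmch and from -0.21 to 0.061 for Nts, and the other alternatives kept each sign. With array weights the differences were 0.27 for Hcrt, 0.11 for Pmch and -0.02 for Nts, each more than 1.5 times larger or smaller than the value with equal weights. The correlation of Hcrt and Pmch ran from 0.75 to 0.93 with 1 rat left out and was 0.68 without the 2 rats farthest from the median of Hcrt, where it no longer passed, as without control rat 2. That of Hcrt and Nts ran from -0.08 to 0.29 (rho -0.07), and that of Pmch and Nts from -0.31 to 0.18 (rho -0.08, and -0.35 without the 2 farthest rats). With 1 rat left out, 1 to 5 of the 6 genes nearest to Hcrt stayed among the nearest, 1 to 5 for Pmch and 2 to 5 for Nts.

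Of 28 other genes with a tested difference, 14 turned sign with 1 rat left out, in these ranges: Ntsr1 -0.0001 to 2.7e-05, Cartpt -0.067 to 0.052, Gad1 -0.044 to 0.042, Slc32a1 -0.082 to 0.071, Gad2 -0.1 to 0.039, Pcsk1n -0.12 to 0.025, Scg2 -0.0021 to 0.086, Htr2c -0.026 to 0.039, Slc18a2 -0.008 to 0.084, Npy -0.079 to 0.0064, Oxt -0.18 to 0.44, Gnrh1 -0.085 to 0.19, Tac3 -0.02 to 0.12, Npvf -0.081 to 0.028. Among those that kept their sign, Trh ran from -0.22 to -0.022, Nmu from 0.30 to 0.66, Vip from -0.99 to -0.32, Avp from 0.033 to 0.48, Sst from -0.18 to -0.068, Maob from 0.068 to 0.14, Vgf from -0.084 to -0.017 and Ptprn from -0.08 to -0.0029. After quantile normalization Ntsr1 stood at 1.1e-05, Ntsr2 at -0.0024 and Sort1 at -0.00056, with a common array median Ntsr1 at 2.3e-05, and with array weights Htr2c at 0.015. Signal over background is not in the files, and the cause of these turns was not tested.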
